A study of Homo sapiens with 4 samples.

Results

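The Krueppel-like factors were examined in an established line of human glioblastoma cells, LN229, with *SOX2* knocked down or with a mock knockdown. They are transcription factors whose zinc fingers at the carboxy-terminal end bind GC-rich and CACCC-type DNA, while the rest of each protein differs and recruits co-activators or co-repressors. Members act in differentiation, quiescence and the response to growth factors and hormones, and *KLF4* is known for reprogramming somatic cells together with *SOX2*. The gene probes of the arrays were searched for 10 of these genes by current and older symbols, which gave 13 probes out of 33096. *KLF10* had 2 probes, *KLF13* had 3, and *KLF2*, *KLF3*, *KLF4*, *KLF5*, *KLF6*, *KLF7*, *KLF9* and *KLF12* had 1 each. A probe for *CKLF*, a chemokine-like factor that shares an older symbol with a member, belongs to another gene and was left out. The rule used names, not signals.

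The series holds 4 arrays, 2 of cells transfected with siRNA against *SOX2* and 2 of cells given a control siRNA without a target, all cultured in DMEM. The knockdown was transient, and the study's methods describe 2 biological replicates, each with its own transfection. Which of the study's *SOX2* siRNAs went onto the arrays is not given in the sources used here, so an effect of the siRNA sequence itself cannot be told apart from that of *SOX2*. Signals were read by chemiluminescence on 1-colour oligonucleotide arrays and are given here relative to the 75th percentile of the gene probes on the same array. A level can therefore be compared across arrays for 1 probe, but not between probes. RNA was taken from whole cultures, so fewer cells expressing a gene and less RNA per cell cannot be told apart.

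Signal to noise (S/N) exceeded 3 for 63.8% to 69.4% of the gene probes on each array, and 21256 probes that passed it on both arrays of at least 1 group were compared. In the labels, the treatment field gives the line as SW620, from colon cancer, where the titles and the cell line field give LN229. Of 12 genes taken as glioblastoma-line markers, 10 had S/N over 3 on every array, all but *CHI3L1* and *FN1*, with *GFAP* on 1 of its 2 probes. Of 10 colon-line markers 1 did, *VIL1* on 1 of its 2 probes, while *CDX2* and *LGALS4* had S/N over 3 on both mock arrays and on no knockdown array, *CDX1*, *EPCAM*, *CEACAM5* and *GPA33* on some arrays, and *CDH1*, *KRT20* and *CDH17* on none. The 13 kept probes of housekeeping genes had a median log2 change of -0.07, and 1 of them, a probe of *GAPDH* with a low signal, was over 2-fold higher. *GAPDH* probe 175324, with S/N from 19.88 to 97.86, had a log2 change of 0.98 (SE 0.43) without overlap of the groups. Probe 235868 of the same gene had -0.01. *SOX2* itself gave mock signals of 0.467 and 0.701 against knockdown signals of 0.209 and 0.149. Its mean signal after knockdown was 0.307 times that of mock, and the log2 change was -1.69 (SE 0.28, limma adjusted p = 0.117), with S/N of 3.17 and 3.06 on the knockdown arrays, just over the limit.

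The 5′ ends of the members were taken from RefSeq on GRCh38.p14 as the 250 bases before and the 50 bases after each annotated start. Of the 10 genes, 8 had an entry, with 15 starts among them, while *KLF3* and *KLF10* had none in the table. The sequences were searched on both strands for ACAAT, the core of the motif bound by SOX proteins, for CACCC and for GGGCGG, the GC box. These motifs were chosen because SOX2, KLF proteins and SP proteins bind such letters, and none of the 3 contains another. As examples, the starts of *KLF2* and *KLF5*, activators with higher signals after knockdown, and of *KLF9*, with a lower signal, are shown. Those of the other members with an entry are not, among them *KLF7*, whose signal was also higher. A link between a motif and the direction of change was not tested. Bases are in lower case, with matches to any of the 3 motifs on either strand in capitals.
KLF2, chr19:16324576-16324875, plus strand: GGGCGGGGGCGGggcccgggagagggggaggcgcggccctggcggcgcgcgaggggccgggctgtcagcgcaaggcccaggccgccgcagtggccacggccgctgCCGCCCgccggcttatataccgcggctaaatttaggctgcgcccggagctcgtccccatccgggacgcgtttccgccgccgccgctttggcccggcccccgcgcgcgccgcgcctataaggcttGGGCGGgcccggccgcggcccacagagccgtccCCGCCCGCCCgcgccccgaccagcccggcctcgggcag
KLF5 upstream start, chr13:73054726-73055025, plus strand: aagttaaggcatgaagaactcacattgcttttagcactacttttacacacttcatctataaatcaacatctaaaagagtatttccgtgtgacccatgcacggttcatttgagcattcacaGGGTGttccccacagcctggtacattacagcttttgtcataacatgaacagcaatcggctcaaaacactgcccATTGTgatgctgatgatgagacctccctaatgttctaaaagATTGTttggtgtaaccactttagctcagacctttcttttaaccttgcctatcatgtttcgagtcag
KLF5 downstream start, chr13:73058755-73059054, plus strand: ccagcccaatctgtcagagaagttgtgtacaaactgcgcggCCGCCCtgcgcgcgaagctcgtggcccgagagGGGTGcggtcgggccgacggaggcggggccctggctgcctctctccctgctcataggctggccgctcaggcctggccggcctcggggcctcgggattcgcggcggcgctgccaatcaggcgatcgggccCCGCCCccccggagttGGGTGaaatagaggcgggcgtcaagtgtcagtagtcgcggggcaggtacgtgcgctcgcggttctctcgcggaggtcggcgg
KLF9, chr9:70414608-70414907, minus strand: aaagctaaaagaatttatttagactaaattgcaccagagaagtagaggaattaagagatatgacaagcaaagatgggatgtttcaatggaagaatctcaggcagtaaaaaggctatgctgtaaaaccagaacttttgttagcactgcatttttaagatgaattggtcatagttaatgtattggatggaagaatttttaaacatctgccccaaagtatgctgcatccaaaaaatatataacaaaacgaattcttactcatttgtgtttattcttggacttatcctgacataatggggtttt

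The window of *KLF2* was 80.7% G or C and held 6 matches to GGGCGG and none to the other motifs. The 2 starts of *KLF5* differed: the upstream one was 40.7% G or C with 2 matches to ACAAT and 1 to CACCC, and the downstream one was 71.3% G or C with 2 matches each to CACCC and GGGCGG and none to ACAAT. *KLF9* had a window of 32.7% G or C with no match to any of the motifs. The median over all promoters in the table was 58.7%. ACAAT was found in 7 of the 15 member windows, against 27.4% of the 35116 promoters in the table, CACCC in 8 against 59.9%, and GGGCGG in 7 against 45%. Several of these starts belong to 1 gene, a match of letters is no evidence of binding, and no binding data are part of this series. The study lists *KLF5* among SOX2 targets whose expression changed after knockdown. That change comes from the study's own knockdown arrays, analysed again here, while the binding comes from separate data on LN229 cells. Binding regions were assigned there to the nearest gene, and the windows shown here were not compared with them.

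*KLF10*, first described as an early gene induced by transforming growth factor beta, encodes a repressor that recruits SIN3A. Both of its probes were higher after *SOX2* knockdown, and they had the largest ratios among the 13 probes. Probe 104402 gave mock signals of 2.39 and 1.93, and knockdown signals of 6.46 and 6.26. The mean was 2.16 ± 0.323 (SD, n = 2) in mock and 6.36 ± 0.142 (SD, n = 2) in knockdown, a ratio of 2.95. Probe 125028 gave 1.41 and 1.36 in mock and 3.76 and 3.79 in knockdown, with a ratio of 2.73. On both probes each knockdown array was above each mock array, and the gap between the groups was larger than the spread within them. The log2 changes were 1.57 (SE 0.16, 95% interval 1.14 to 2.0, limma adjusted p = 0.0833) and 1.45 (SE 0.12, 95% interval 1.12 to 1.78, limma adjusted p = 0.0675). Neither passed the adjusted threshold of 0.05. Ordered from the highest log2 change to the lowest, they ranked 106 and 128 among the 21256 probes compared. The 2 probes share the Celera gene ID hCG15009.2, so they are 2 readings of 1 gene and not independent evidence.

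**Figure D1:**
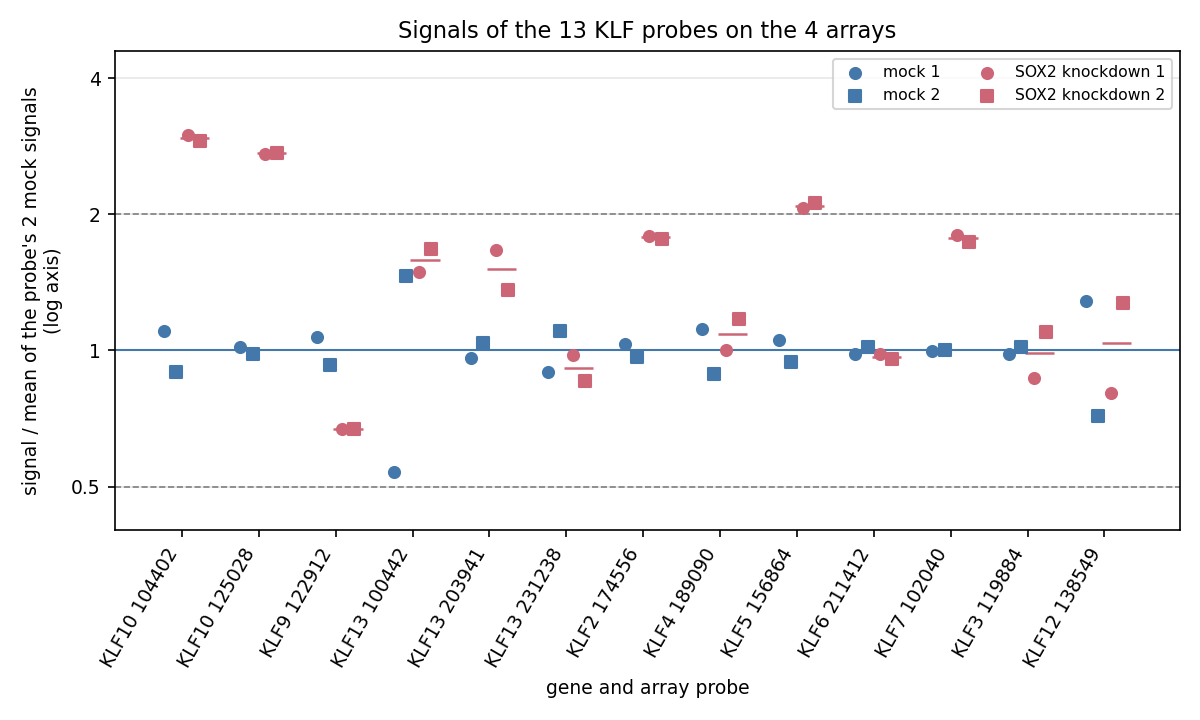
Signals of the 13 KLF probes on the 4 arrays, each divided by the mean of the probe's 2 mock signals, on a log axis. Blue points are mock arrays, red points *SOX2* knockdown arrays (circle, replicate 1; square, replicate 2), short red lines the knockdown mean, and dashed lines mark a ratio of 2 and of 0.5. Both *KLF10* probes and *KLF5* lie above the upper dashed line on average, with ratios of 2.95, 2.73 and 2.09, and no probe lies below the lower one.

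The activators came next. *KLF5*, which promotes proliferation in epithelial and smooth muscle cells, was higher after knockdown, with signals of 0.876 and 0.783 in mock and of 1.71 and 1.76 in knockdown. The mean signal of *KLF5* went from 0.830 ± 0.0656 (SD, n = 2) to 1.73 ± 0.0333 (SD, n = 2), a ratio of 2.09. The log2 change was 1.07 (SE 0.13, 95% interval 0.71 to 1.43, limma adjusted p = 0.0964), which missed the threshold, and without mock replicate 2 the ratio was 1.98, under the 2-fold cutoff.

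*KLF2*, known from endothelial cells and from T-cell quiescence, gave 1.32 and 1.23 in mock and 2.28 and 2.25 in knockdown. Its ratio was 1.78 and its log2 change 0.83 (SE 0.13, 95% interval 0.49 to 1.17, limma adjusted p = 0.106). *KLF7*, which takes part in neuronal development, gave 0.295 and 0.297 in mock and 0.533 and 0.515 in knockdown. Its ratio was 1.77 and its log2 change 0.82 (SE 0.12, limma adjusted p = 0.106). The groups of both genes were apart by far more than the spread within them, but neither reached 2-fold. With normexp background correction of the raw reading the change of *KLF7* was 0.49, the lowest under any setting tried.

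*KLF4* and *KLF6* had intervals on both sides of 0. *KLF4* gave 0.233 and 0.185 in mock and 0.209 and 0.245 in knockdown, so the groups overlapped. The log2 change was 0.13 with a 95% interval of -0.36 to 0.62, and its sign turned to -0.04 without mock replicate 2. *KLF6*, a growth-restraining factor that is expressed in most tissues, gave 3.43 and 3.55 in mock and 3.42 and 3.33 in knockdown. The knockdown arrays were just below the mock arrays, by a log2 value of -0.05 with a 95% interval of -0.38 to 0.29, and the limma adjusted p was 0.923.

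*KLF9* and *KLF13* encode factors that, like *KLF10*, recruit SIN3A. *KLF9*, which responds to glucocorticoid and thyroid hormone, was the 1 member whose interval lay wholly below 0. Its signals were 8.50 and 7.39 in mock and 5.32 and 5.33 in knockdown. The mean went from 7.94 ± 0.787 (SD, n = 2) to 5.33 ± 0.00572 (SD, n = 2), a ratio of 0.671. Its groups did not overlap, with a log2 change of -0.57 (SE 0.14, 95% interval -0.95 to -0.20, limma adjusted p = 0.173), which did not pass the threshold. Under all 17 other settings tried for single probes the sign was kept, with values from -0.67 to -0.47.

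The 3 probes of *KLF13*, a factor known for inducing *CCL5* in T cells, have 3 different Celera gene IDs and disagreed. Probe 203941 (hCG38887.2) gave 0.558 and 0.602 in mock and 0.965 and 0.790 in knockdown, a log2 change of 0.59 (SE 0.16, 95% interval 0.16 to 1.02, limma adjusted p = 0.197). Probe 100442 (hCG1820892.1) gave 0.193 and 0.525 in mock and 0.536 and 0.601 in knockdown, so its mock arrays differed 2.72-fold between themselves. The log2 change of that probe was 0.83 (SE 0.50), but 0.11 without mock replicate 1 and 1.56 without mock replicate 2, and it was 2.02 with normexp. Probe 231238 (hCG1982170) gave 0.406 and 0.50 in mock and 0.442 and 0.388 in knockdown, with overlapping groups and a log2 change of -0.12 (SE 0.17). No single value for *KLF13* follows from these probes, and which part of the transcript each one reads is not given in the sources used here.

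*KLF3* and *KLF12* encode repressors that bind CtBP, and both had overlapping groups. *KLF3* gave 4.70 and 4.87 in mock and 4.16 and 5.26 in knockdown, where the 2 knockdown arrays enclosed the mock arrays, with a log2 change of -0.03 and a 95% interval of -0.48 to 0.42. *KLF12* was the dimmest in S/N, from 3.73 to 7.59, and gave 0.130 and 0.0727 in mock and 0.0816 and 0.129 in knockdown. Its log2 change of 0.08 had a 95% interval of -0.94 to 1.09, which includes a fall close to 2-fold and a rise just over 2-fold.

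**Figure D2:**
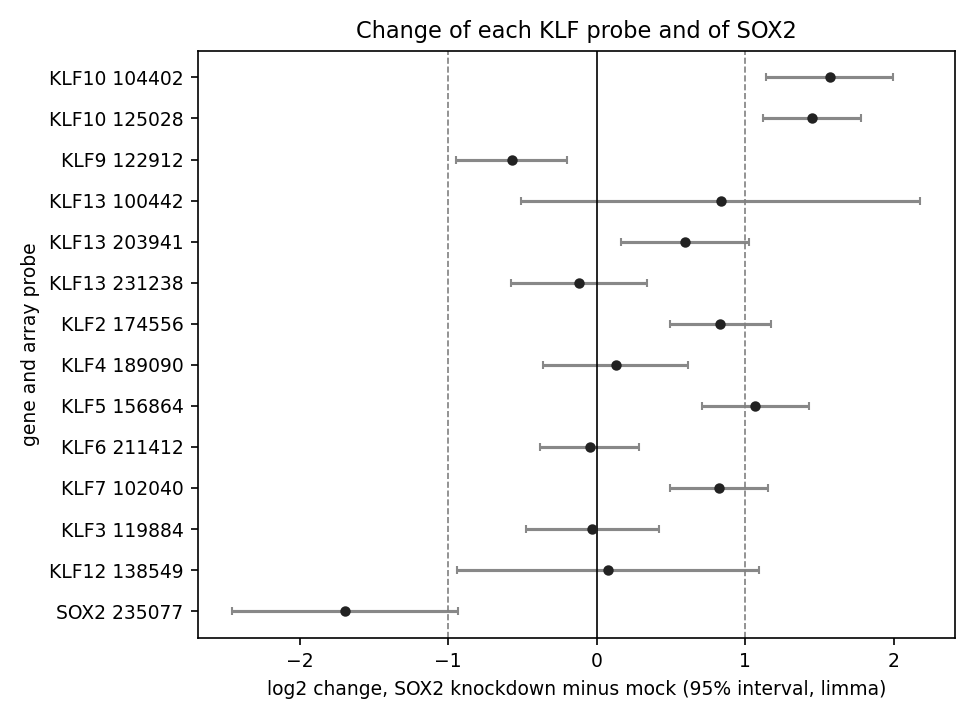
Log2 change of each KLF probe, *SOX2* knockdown minus mock, with its 95% interval from limma (x axis), by gene and probe (y axis), with *SOX2* in the bottom row and dashed lines at 2-fold. The intervals of *KLF10*, *KLF5*, *KLF2*, *KLF7* and *KLF13* probe 203941 lie above 0 and that of *KLF9* below it, while no probe passed an adjusted p of 0.05 and the interval of *KLF12* spans -0.94 to 1.09.

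Over the 10 chosen members, which are not the whole family, all 13 probes had S/N over 3 on each of the 4 arrays. None of these probes was lost to the filter, and the other KLF genes are described separately below. Of them, 3 probes of 2 genes (*KLF10* and *KLF5*) were over 2-fold higher after knockdown, beside 1.57% of all probes compared, and 0 were over 2-fold lower, beside 1.04%. At 1.5-fold, 7 were higher, beside 5.32%, and 0 lower, beside 5.19%. An unadjusted limma p under 0.05 was reached by 6 higher probes, beside 7.9%, and by 1 lower probe, beside 9.16%. At an adjusted p under 0.05 limma called 0 of the 13 and 0% of all probes, with 3626 of all probes at an unadjusted p under 0.05, and the smallest adjusted p of any probe was 0.0582. At an adjusted p under 0.1 it called 3 of the 13, beside 1.13%. Non-overlapping groups were seen for 7 higher probes, beside 21.2%, and for 2 lower probes, *KLF9* and *KLF6*, beside 25.8%. The median log2 change was 0.59 over these 13 KLF probes and -0.00 over all probes. That 0.59 is the value of *KLF13* probe 203941, a gene whose probes disagreed, and *KLF10* and *KLF13* enter the median with 2 and 3 probes. These shares are descriptions, since probes of 1 gene share their RNA and the members were chosen with results of these arrays known.

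The closest relatives of these genes were listed beside them. The list of other KLF and SP genes had 15 of its 16 genes on the array, and 12 of their 19 probes, from 10 genes, passed the S/N filter. *KLF1*, *KLF8*, *SP4*, *SP5* and *SP7* had no probe that passed. The median log2 change was -0.02, and 0 probes reached an unadjusted p under 0.05 or 2-fold in either direction. *KLF16* had a log2 change of 0.27 (SE 0.23, limma adjusted p = 0.673), followed by *KLF15* with 0.18, while *SP1*, the founding SP factor, had -0.14 and *KLF14* had -0.30. The difference between this list and the 10 members was not tested.

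The proteins that KLF factors recruit were compared in the same way. All 14 cofactor genes had a probe that passed, 16 of 19 in all, with a median log2 change of -0.08. *WDR5*, a core subunit of histone methyltransferase complexes, was the 1 with an unadjusted p under 0.05. It gave 0.487 and 0.528 in mock and 0.834 and 0.753 in knockdown, a log2 change of 0.65 (SE 0.14, limma adjusted p = 0.148). The acetyltransferase *KAT2B* had -0.27. *HDAC2*, a histone deacetylase, had 0.58 (SE 0.31) on probe 230512 and -0.03 on probe 207417. Probe 230512 was dim, with S/N from 3.26 to 7.99, and the 2 probes have different Celera gene IDs.

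Genes that act upstream of KLF genes or proteins had 22 of 23 probes kept, from 17 of 18 genes, and a median log2 change of -0.04. *TGFBR1* had no probe that passed. An unadjusted p under 0.05 was reached by 3 higher and 2 lower probes, and none was past 2-fold. *ITCH*, a ubiquitin ligase, had 0.70 (SE 0.14, limma adjusted p = 0.138) on 1 probe and 0.25 on the other. *NR3C1*, the glucocorticoid receptor that activates *KLF9*, had 0.55 (SE 0.12) on probe 110884 and -0.04 on probe 159749. *MEF2C*, one of the MEF2 factors through which *KLF2* is induced, had -0.81 (SE 0.18, limma adjusted p = 0.159). The other MEF2 genes on the list had 0.03 and 0.12, and a link of any of them to *KLF2* was not tested. *FBXW7*, whose ubiquitin ligase degrades KLF5 and KLF2 proteins, had 0.42 (SE 0.13, limma adjusted p = 0.229). Protein levels were not measured.

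Genes reported elsewhere as KLF targets had 23 of 27 probes kept, from 21 of 24 genes, with a median log2 change of 0.05. *DPP4*, *PLAU* and *THBD* had no probe that passed. *ODC1*, the first enzyme of polyamine synthesis, gave 2.63 and 2.63 in mock and 4.50 and 4.54 in knockdown, with a log2 change of 0.78 (SE 0.12, limma adjusted p = 0.109). *BMP4*, a growth factor, had a ratio of 0.628 and a log2 change of -0.67 (SE 0.15, limma adjusted p = 0.156). Of the 23 probes, 3 were higher and 4 lower at an unadjusted p under 0.05. Whether any of these genes responds to a KLF factor in LN229 cells was not tested.

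**Figure D3:**
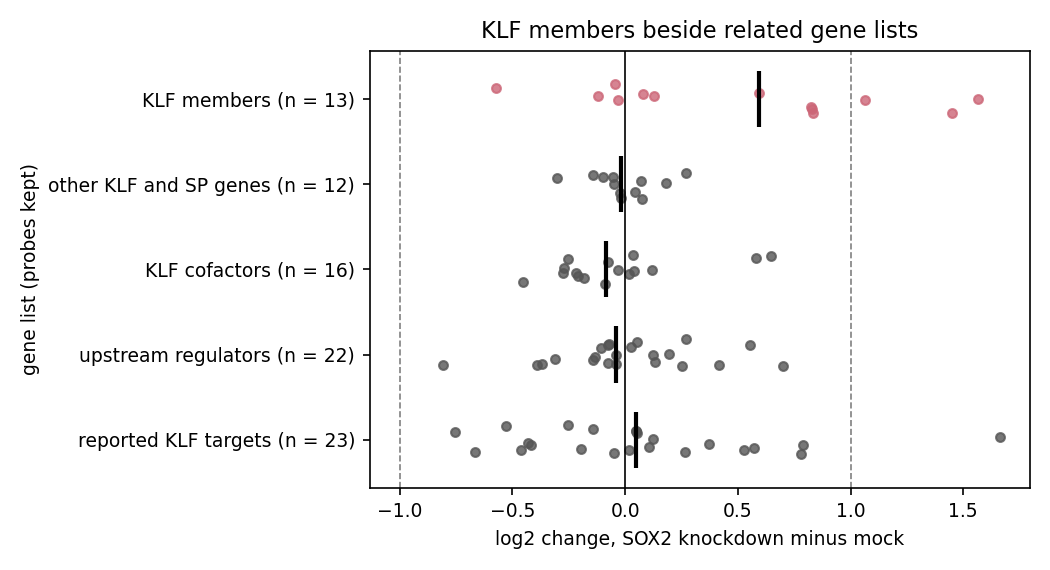
Log2 change, *SOX2* knockdown minus mock, of every kept probe of the 10 KLF members and of the lists of other KLF and SP genes, KLF cofactors, upstream regulators and reported KLF targets, 1 point per probe (x axis, with dashed lines at 2-fold; height within a list has no meaning), with a black line at each list's median. The median over the KLF member probes is 0.59, with 2 probes of *KLF10* and 3 of *KLF13* among them. The medians of the other lists lie between -0.08 and 0.05.

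The probes with the pattern most like *KLF10* were found by Euclidean distance of centred log2 signals over the 4 arrays, starting from probe 104402 and comparing it with 15870 named probes of other genes. The nearest were *SDK1* at 0.124, *SERPINA1* at 0.135 and *PDP1* at 0.147, with knockdown over mock ratios of 2.92, 3.18 and 3.06. The second *KLF10* probe lay at 0.219. With 4 arrays in 2 groups, a likeness of this kind covers little beyond the difference between the groups and the spread within them.

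**Figure D4:**
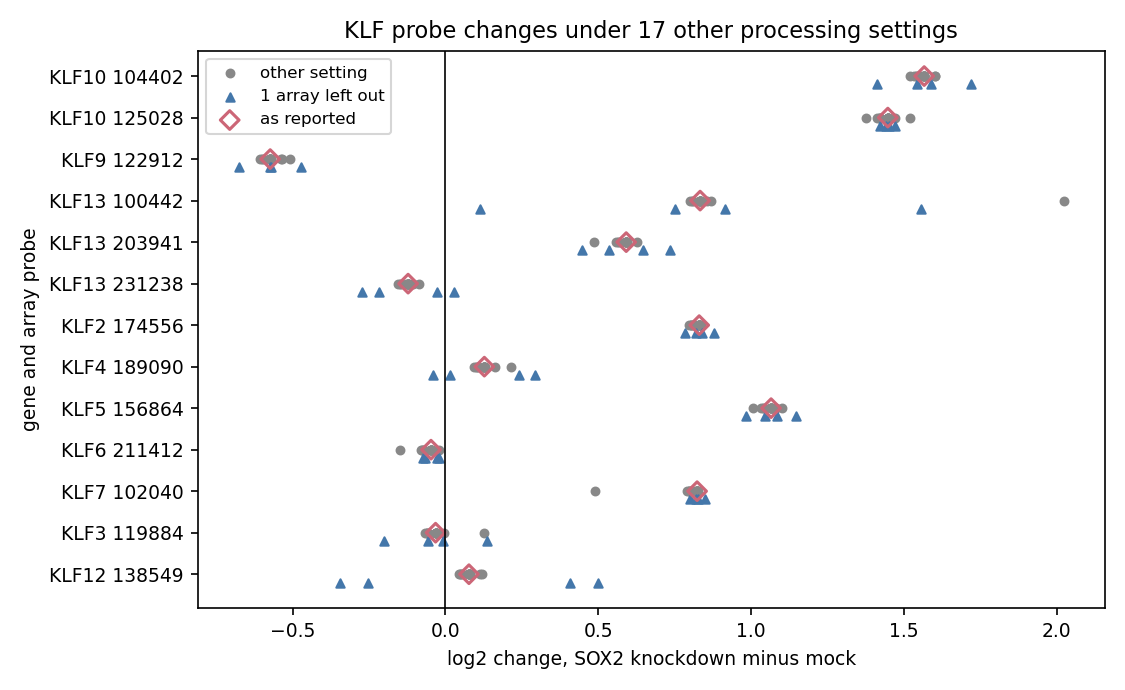
Log2 change of each KLF probe, *SOX2* knockdown minus mock (x axis), by gene and probe (y axis), as reported (open red diamond), with 1 array left out (blue triangles) and under the rest of 17 other settings (grey points). Both *KLF10* probes stay between 1.38 and 1.72, *KLF5* between 0.99 and 1.15 and *KLF9* between -0.67 and -0.47, whereas *KLF3*, *KLF4*, *KLF12* and *KLF13* probe 231238 have settings on both sides of 0.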

How the data were processed

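Biotin-labelled total RNA was measured with the Human Genome Survey array of Applied Biosystems. The deposited scanner files give, per the file headers, a normalized signal, which is an intensity on a linear scale, a raw intensity reading, the S/N as a score, and quality flags whose meaning is not given in the sources used here. The software version is not given either. A second deposited table holds a linear ratio per probe, which the authors scaled by array and divided by the probe's median, and it was used as an alternative.

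Control features and 210 probes with a flag of 5000 or more were left out of the 33096 gene probes. Signals were divided by the 75th percentile of each array (5.96 to 6.88), floored at 0.01 and taken to log2. A probe was kept where either group had S/N over 3 on both of its arrays (21256 kept, 11630 dropped). Groups came from the source names and replicate numbers from the titles. The 2-fold cutoff of replicate means follows the study's methods, which use no test. limma 3.58.1 (lmFit and eBayes, no block, two-sided, Benjamini-Hochberg over all probes kept) ran in R 4.3.3, and tables were made in Python 3.11.15. The fit was also run on simulated arrays with independent normal errors, which cannot show whether its p-values hold for these arrays. Probes were analysed singly, whereas the study averaged those of 1 gene ID, which was run as an alternative. All p-values rest on 2 arrays per group, whose number limits the precision, and an exact permutation test could not go below p = 0.333.

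The members and gene lists were chosen with earlier results of these data known. The genes named are all members and *SOX2*, from each list those past 2-fold or, where these were under 4, up to 4 with the smallest unadjusted p, and the 3 nearest to the KLF probe with the largest change. Some genes that the rule picks from the lists are not reported here. The marker, housekeeping and remaining KLF lists are described by counts and medians. *GAPDH* was chosen after its values were seen.

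Deviations from the group means had a correlation of -0.48 between arrays of the same replicate number. Alternatives covered the scaling between arrays, the authors' table, background correction, the floor, the S/N filter, gene ID means, the variance model, the replicate block, the fold cutoff and leaving out each array.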

Additional observations from a re-analysis of the deposited data

How the results depend on the processing

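The count of KLF probes over 2-fold higher, 3 as reported, was 7 with a 1.5-fold cutoff and 4 with normexp, which added *KLF13* probe 100442, and it was 3 to 3 when each array was left out. Those 3 were not always the same probes: without mock replicate 2, *KLF5* dropped out with a ratio of 1.98 and *KLF13* probe 100442 came in with 2.94. The count over 2-fold lower was 0 under every setting run. KLF probes at an adjusted p under 0.05, 0 as reported, numbered 3 with median scaling, with no further scaling and with the authors' table, where limma fitted 1 common variance and called 3.87%, 3.65% and 3.57% of all probes, and 4 with a variance trend, which called 1.35%. The 3 were both *KLF10* probes and *KLF5*, and the trend added *KLF2*. With any array left out the count was 0 to 0. The count of all probes over 2-fold, 554 as reported, was 235 with normexp, 363 with a floor of 0.05, 1373 with no S/N filter, 302 with S/N over 3 on all 4 arrays, 2234 at 1.5-fold and 682 to 932 with 1 array left out. The sign turned for *KLF3* with normexp (0.13). With 1 array left out it turned within the ranges of *KLF3* (-0.20 to 0.14), *KLF4* (-0.039 to 0.29), *KLF12* (-0.34 to 0.50) and *KLF13* probe 231238 (-0.27 to 0.029), and the cause was not tested. The shared replicate numbers are no known pairing. With a replicate block 0 probes passed an adjusted p of 0.05 and 1905 an unadjusted p of 0.05, against 3626 without it, and with a crossed replicate block, chosen after seeing the data, 0 and 5518. The *KLF10* probes then had limma adjusted p values of 0.248 and 0.256 in the block by number. The assay-normalized signal, also chosen after seeing the data, gave 335 probes over 2-fold higher and 208 lower. The share of higher calls was 60.3% as reported, 54.9% to 61.7% under other scalings and 51.2% with no S/N filter. Its range was wider with 1 array left out, where the lowest share was just under an even split. Signals near background limit *KLF12*, whose S/N fell to 3.73.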
